A study of Mus musculus with 24 samples.

Results

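E2F transcription factors and their dimerization partner were followed in natural killer (NK) cells sorted from the spleen of mice that carried a lymphoma. Members were taken by gene name as E2f1 to E2f8 and Tfdp1, which gave 9 of the 45237 genes listed. All 9 were among the 17097 genes that passed the filter on low counts and were tested. The mice were wild-type C57BL/6J animals, and the study used females of 7 to 9 weeks unless specified otherwise. Control mice were not treated and carried no tumor (n = 4 libraries). RMA-bearing mice received the RMA T cell lymphoma line intravenously and were taken at day 2 (early, n = 3), day 4 (intermediate, n = 3) or day 9 (late, n = 3). RMA-KR–bearing mice received RMA-KR cells by the same route and were taken at day 2 (early, n = 3), day 7 (intermediate, n = 5) or day 14 (late, n = 3). RMA-KR is a single subclone of RMA that lacks B2m, and with it surface MHC class I, and that expresses the NKG2D ligand Rae1-β and the fluorescent protein ZsGreen from a lentivirus. The study also followed RMA cells in mice by ZsGreen, and its methods describe RMA cells given this lentivirus without Rae1-β. Model and day cannot be told apart at the intermediate and late stages, because the days differ between the models. The 24 libraries held 5138651 to 14863500 counts (median 10489204), so that 3 counts, the floor used here, stand for 0.584 CPM (counts scaled to the library total) in the smallest library. This floor covers counting error only. The number of genes with a count was 19370 to 27820 in control libraries, 15289 to 18247 in RMA intermediate, 15263 to 24234 in RMA late and 16385 to 18509 in RMA-KR late libraries, so that RMA intermediate and RMA-KR late libraries all lay below control. The scaling factors of TMM were 0.986 to 1.06 in control, 0.931 to 0.960 in RMA intermediate, 0.936 to 0.974 in RMA late and 0.957 to 1.01 in RMA-KR late libraries. The part of these differences in the results was not tested. The study counts its late and control RNA-seq groups in mice, with fewer control mice than the 4 control libraries deposited, and the labels do not name an animal for any library, and p-values measure the spread between libraries, whatever its source.

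E2F proteins bind the promoters of genes needed for DNA replication and couple them to the cell cycle. E2F1, E2F2 and E2F3 are known as activators, which are held by the retinoblastoma protein until cyclin-dependent kinases release them. E2F4 and E2F5 act with the related pocket proteins to repress the same genes in resting cells, E2F6 recruits Polycomb proteins, and the atypical E2F7 and E2F8 repress without a partner. The remaining E2Fs need a DP protein such as TFDP1 to bind DNA. Resting NK cells divide little and enter the cycle when cytokines stimulate them.

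The sorted cells carried the markers of their label. All 10 NK cell genes listed, Ncr1 and Klrb1c among them, had counts in every library and together made 20868 to 37387 CPM, with Gzma the most abundant. The 11 T cell genes summed to 282 to 596 CPM, of which Trbc1 was the largest, while Cd3e was at 0 in 12, Cd4 in 17 and Cd8a in 18 of the 24 libraries. B cell genes summed to 213 to 580 CPM, with Ighm the largest in every library. Macrophage genes reached at most 80.1 CPM (mostly Cd68, with C1qa at 0 in 22 libraries), granulocyte genes at most 12.5 CPM (Ngp the largest over all libraries) and red blood cell genes at most 16.7 CPM (Car1 the largest). The RMA-KR intermediate libraries split in these values: replicates 3, 4 and 5 had NK marker sums of 22120, 22080 and 20868 CPM against 33946 and 35105 CPM in replicates 1 and 2.

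Expressed per kilobase of transcript, which allows genes to be compared, E2f4 was the highest member in every group. In control NK cells its level was 48.2 ± 8.57 CPM per kb (SD, n = 4), followed by Tfdp1 at 12.2 ± 1.1 and E2f5 at 8.60 ± 2.88. E2f2 stood at 4.03 ± 2.18, E2f7 at 2.18 ± 1.43, E2f6 at 1.84 ± 1.03, E2f1 at 1.27 ± 0.761, E2f3 at 0.642 ± 0.489 and E2f8 at 0.469 ± 0.510 CPM per kb. In this order only E2f4 and Tfdp1 were separated, and every other pair of neighbors overlapped between control libraries. The order differed late after injection: in RMA late NK cells E2f4 (37.6 ± 11.1) was followed by Tfdp1 (25.3 ± 5.65), E2f2 (25.3 ± 6.70) and E2f7 (15.5 ± 9.52 CPM per kb, n = 3 each), all overlapping their neighbors. RMA-KR late NK cells had the same first 4, with E2f4 at 35.8 ± 10.9, Tfdp1 at 22.2 ± 15.0, E2f2 at 22.2 ± 5.12 and E2f7 at 16.9 ± 5.15 CPM per kb (n = 3), and E2f8 next at 6.28 ± 5.95 without overlap with E2f7. Lengths are the authors' transcript lengths, and the 827 bases given for E2f7 are fewer than its 9009 annotated exon bases, so its level per kb depends on that choice.

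Of the 9 members 7 had promoter entries in RefSeq (GRCm38.p6), 10 in all, each running from 250 bases before to 50 bases after a transcription start, and E2f4 and E2f5 had none. As the E2F site 4 words, TTTCCCGC, TTTCGCGC, TTTGCCGC and TTTGGCGC, were searched on both strands, where they read GCGGGAAA, GCGCGAAA, GCGGCAAA and GCGCCAAA. At least 1 of them occurred in promoters of 4 members, E2f2, E2f3, E2f7 and Tfdp1, and in 744 of all 32851 promoter entries of this length (2.26%). For each of these members 1 entry with a word is shown, because E2F factors are known to act on E2F genes, in lower case with the word in capitals. They lie at chr4:136172024-136172323 (plus strand), chr13:29986014-29986313 (minus strand), chr10:110745189-110745488 (plus strand) and chr8:13338501-13338800 (plus strand), in the order E2f2, E2f3, E2f7 and Tfdp1.
E2f2: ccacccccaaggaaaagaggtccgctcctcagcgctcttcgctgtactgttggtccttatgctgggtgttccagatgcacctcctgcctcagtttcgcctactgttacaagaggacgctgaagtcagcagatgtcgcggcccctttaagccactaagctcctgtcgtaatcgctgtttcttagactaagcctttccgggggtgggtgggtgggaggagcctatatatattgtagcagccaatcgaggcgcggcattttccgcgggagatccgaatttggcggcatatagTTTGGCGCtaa
E2f3: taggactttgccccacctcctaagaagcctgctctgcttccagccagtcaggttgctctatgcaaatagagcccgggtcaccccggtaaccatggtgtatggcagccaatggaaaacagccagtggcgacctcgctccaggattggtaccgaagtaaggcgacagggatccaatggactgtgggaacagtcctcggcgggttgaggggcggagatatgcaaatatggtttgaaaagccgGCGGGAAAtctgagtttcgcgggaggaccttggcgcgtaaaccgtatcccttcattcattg
E2f7: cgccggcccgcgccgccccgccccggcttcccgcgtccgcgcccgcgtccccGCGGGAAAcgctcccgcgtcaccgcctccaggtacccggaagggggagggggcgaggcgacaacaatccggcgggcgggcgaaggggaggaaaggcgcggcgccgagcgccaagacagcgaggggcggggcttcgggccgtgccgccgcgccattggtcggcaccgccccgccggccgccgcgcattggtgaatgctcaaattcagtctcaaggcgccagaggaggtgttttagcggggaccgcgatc
Tfdp1: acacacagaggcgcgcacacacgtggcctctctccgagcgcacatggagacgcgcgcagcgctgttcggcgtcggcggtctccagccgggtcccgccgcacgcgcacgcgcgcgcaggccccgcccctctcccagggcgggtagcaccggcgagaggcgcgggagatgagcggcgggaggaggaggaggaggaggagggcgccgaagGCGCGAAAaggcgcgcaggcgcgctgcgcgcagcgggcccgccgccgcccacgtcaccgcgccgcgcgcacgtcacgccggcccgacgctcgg
The word ran from base 39 to 46 after the start in E2f2, from −11 to −4 in E2f3, from −198 to −191 in E2f7 and from −43 to −36 in Tfdp1. A second Tfdp1 entry, chr8:13338554-13338853, overlaps the one shown and holds the same word, there from −96 to −89, while the second entries of E2f2 and E2f3 hold none. The only E2f1 entry, chr2:154569377-154569676 (minus strand), lies inside the annotated gene, which starts at base 154569892 on that strand. Bases before that start were not searched for E2f1, and variants of the 4 words were not searched for any member. A match is a description of these letters and shows no binding in NK cells.

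Each tumor-bearing group was compared with control to ask which members differed. A gene was called when its adjusted p (from edgeR's quasi-likelihood test, corrected after Benjamini and Hochberg across 17097 genes) was below 0.05 and its fold change above 2. All comparisons with control share the same 4 control libraries. At the intermediate stage of RMA growth 2 of 9 members were called, E2f2 and Tfdp1, both higher than in control (with DESeq2's size factors only E2f2), against 1.65% of all tested genes. There 7 of 9 members lay above control in every library, the exceptions being E2f4 and E2f5, against 10.2% of all tested genes and a chance share of 1 in 35 for 3 libraries against 4. In RMA late NK cells 1 of 9 members was called higher (E2f2, background 1.79%), and 5 of 9 lay above control in every library (E2f2, E2f3, E2f7, E2f8 and Tfdp1, background 9.24%). In RMA-KR late NK cells 1 of 9 was called higher (E2f2, background 0.983%), and 2 of 9 lay above control in every library (E2f2 and E2f7, background 5.88%). Early after injection edgeR called 0 of 9 members against control in RMA-bearing mice (background 0%) and 0 of 9 in RMA-KR–bearing mice (background 0.0819%). At an unadjusted p below 0.05 the count was 0 in both, and DESeq2 called 0 in both. RMA-KR intermediate NK cells also had 0 of 9 members called by edgeR (background 0.0175%), with 0 at an unadjusted p below 0.05 and 0 by DESeq2. There DESeq2 gave no adjusted p, at its defaults or with betaPrior=TRUE, for E2f1, E2f3, E2f5, E2f6, E2f7 and E2f8. A missing value counted as not called, so DESeq2 tested little here. For E2f2 and Tfdp1 an adjusted p came from only 1 of these settings. Over all genes, RMA early NK cells had 0 called by edgeR, 1204 at an unadjusted p below 0.05 and 68 by DESeq2 at its defaults or 19 with betaPrior=TRUE.

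**Figure D1:**
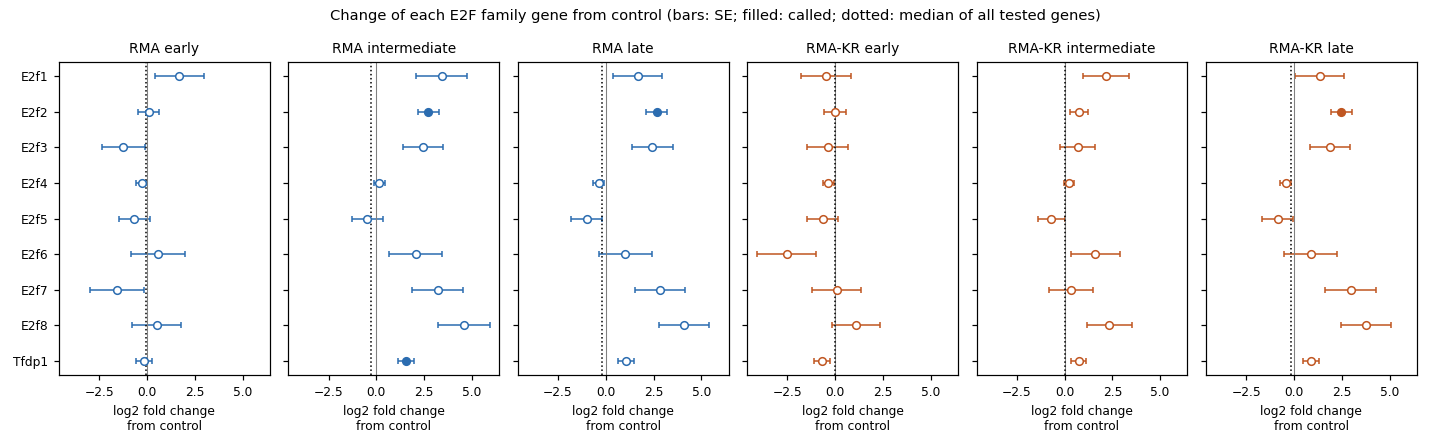
Log2 fold change of each of the 9 members against control (horizontal axis, log2 scale; members on the vertical axis) in the 6 tumor-bearing groups (panels), with SE bars, filled points for called genes and a dotted line for the median of all tested genes. The filled points are E2f2 in RMA intermediate, RMA late and RMA-KR late NK cells and Tfdp1 in RMA intermediate NK cells, the last of them not called with DESeq2's size factors.

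Between stages, 1 of 9 members, E2f2, was higher in RMA late than in RMA early NK cells (background 2.01%). Of the 344 genes called in that comparison 253 were higher (73.5%), and with DESeq2's size factors 198 of 330 were (60%). DESeq2 had 470 of 919 higher at its defaults (51.1%) and 322 of 629 with betaPrior=TRUE (51.2%), and edgeR with only these groups in the fit called 1 gene. From early to late in the RMA-KR model edgeR called 0 of 9 (background 0.322%), with 2 at an unadjusted p below 0.05, E2f2 and Tfdp1, and DESeq2 called both. From intermediate to late, edgeR called 0 of 9 in the RMA model (background 0%; 0 at an unadjusted p below 0.05 and 0 by DESeq2) and 0 of 9 in the RMA-KR model (background 0.298%; 3 at an unadjusted p below 0.05 and 1, E2f2, by DESeq2). Between the models 0 of 9 members were called at the early stage (background 0.304%) and 0 of 9 at the late stage (background 0%), with 0 at an unadjusted p below 0.05 and 0 by DESeq2 in each. At the intermediate stage no test between the models was made. There E2f2 measured 58.6 to 78.0 CPM in RMA and 8.08 to 23.6 CPM in RMA-KR NK cells. E2f3, E2f7 and E2f8 were also higher in RMA NK cells without overlap, while E2f1, E2f4, E2f5, E2f6 and Tfdp1 overlapped. The share of all tested genes that separate in this way was not counted, and the days differ as well. No member was called for a step from early to late that differed by model, where edgeR, DESeq2 and an unadjusted p below 0.05 each gave 0 of 9. Over all 17097 tested genes edgeR called 0, DESeq2 at its defaults 149, and 1777 were at an unadjusted p below 0.05. For E2f2 the difference between the models in this step was 0.08 on the log2 scale (SE 0.83), which does not show that the models act alike.

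E2f2 (ENSMUSG00000018983, chr4:136172394-136196057, mm10), an activator, was the member called most often. In control NK cells it measured 17.6, 10.3, 3.79 and 9.91 CPM after scaling between libraries. RMA early NK cells had 1.87, 17.6 and 13.6 CPM and RMA-KR early NK cells 5.29, 7.43 and 18.1 CPM, which overlapped control. RMA intermediate NK cells had 68.4, 78.0 and 58.6 CPM and RMA late NK cells 65.1, 82.6 and 48.0 CPM. Every one of these 6 libraries lay above every control library. RMA-KR intermediate NK cells had 23.5, 16.9, 14.8, 8.08 and 23.6 CPM, overlapping control, while RMA-KR late NK cells had 47.7, 72.4 and 51.7 CPM, all above control. The log2 fold change against control was 2.72 (SE 0.56, adjusted p = 0.00824) in RMA intermediate NK cells, and this call was kept with any 1 of the 7 libraries left out (adjusted p 0.0151 to 0.0403). It was 2.66 (SE 0.56, adjusted p = 0.00857) in RMA late NK cells, where the call was lost without RMA late replicate 2 (adjusted p = 0.0547). It was 2.47 (SE 0.56, adjusted p = 0.0255) in RMA-KR late NK cells, where the call was lost without control replicate 2, 3 or 4 (adjusted p = 0.0876, 0.0964 and 0.0913) and without RMA-KR late replicate 1 or 2 (adjusted p = 0.0565 and 0.0791). With the replicate number as a block none of these 3 calls was kept, at log2 fold changes of 2.54, 2.46 and 2.27 (adjusted p = 0.0508, 0.0557 and 0.141), the largest adjusted p in ranges that began at 2.10e-06, 4.52e-06 and 3.57e-05 over the alternatives that leave out no single library. From RMA early to RMA late the rise was 2.56 (SE 0.62, adjusted p = 0.0268), lost without RMA early replicate 1 or RMA late replicate 1 or 2 (adjusted p = 0.107, 0.0717 and 0.125) and with only the libraries of these groups in the fit (adjusted p = 0.184, within a range of 0.000216 to 0.184 over the alternatives that leave out no single library). In the RMA-KR model the same step was 2.48 (SE 0.62, adjusted p = 0.0804, higher in 3 of 3 late libraries) and did not pass. A different number of cells of a type and a different amount of RNA per cell cannot be told apart in such bulk libraries.

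The other activators were measured with more scatter. E2f1 (ENSMUSG00000027490, chr2:154559407-154569892), the best known activator, stood at 1.11, 4.15, 6.00 and 2.68 CPM in control NK cells and at 42.6, 32.6 and 38.9 CPM in RMA intermediate NK cells. All 3 of these libraries lay above control, by 3.43 on the log2 scale (SE 1.34, adjusted p = 0.231). E2f1 was called there in 4 alternatives, DESeq2 with betaPrior=TRUE among them, and the adjusted p ranged from 0.000163 to 0.248 over those that leave out no single library. RMA late NK cells had 3.87, 15.5 and 14.5 CPM, which overlapped control. RMA-KR intermediate NK cells had 7.91, 8.10, 37.9, 12.2 and 12.5 CPM, all above control, at a log2 difference of 2.16 (SE 1.20, adjusted p = 0.928). RMA-KR late NK cells had 8.01, 18.5 and 0.0964 CPM, the last of them a single count, so the group spanned control on both sides. Early values were as scattered, at 0, 26.0 and 8.06 CPM in RMA-bearing and 0.0927, 0.0766 and 7.24 CPM in RMA-KR–bearing mice. E2f3 (ENSMUSG00000016477, chr13:29906575-29986063) stood at 5.36, 0.193, 2.21 and 4.02 CPM in control NK cells. It measured 10.5, 19.7 and 17.8 CPM in RMA intermediate and 21.7, 19.3 and 6.62 CPM in RMA late NK cells, every library above control. The log2 fold changes were 2.45 (SE 1.06, adjusted p = 0.281) and 2.43 (SE 1.06, adjusted p = 0.302), so neither passed the test. Only edgeR's newer method called E2f3 in these 2 groups, and the adjusted p ranged from 0.0225 to 0.493 and from 0.0162 to 0.556 over the alternatives that leave out no single library. RMA-KR late NK cells had 4.63, 11.7 and 16.0 CPM of E2f3, overlapping control by 1 library.

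**Figure D2:**
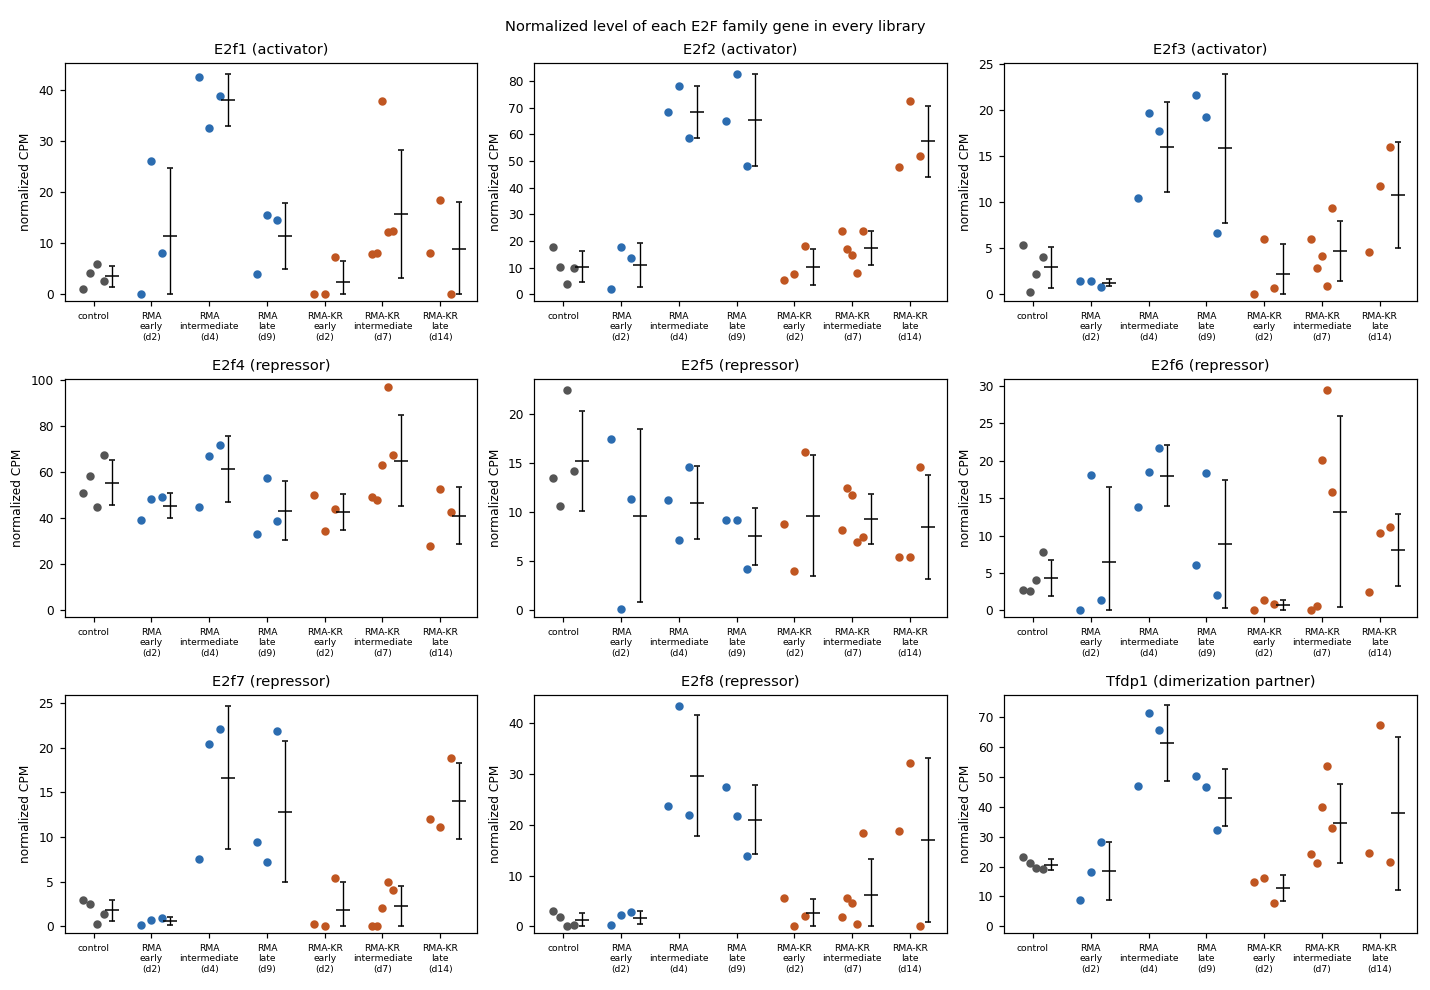
Level of each of the 9 members in each of the 24 libraries (points, CPM) by group, with the mean and SD of each group as a bar, its lower end cut at 0. E2f2 lies between 3.79 and 17.6 CPM in control libraries and between 48.0 and 82.6 CPM in the 6 RMA intermediate and late libraries.

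The atypical repressors E2f7 and E2f8 had the lowest mean CPM of the family in control NK cells, and the largest fold change of any member was that of E2f8 in RMA intermediate, RMA late and RMA-KR late NK cells. E2f8 (ENSMUSG00000046179, chr7:48866429-48881596) stood at 2.96, 1.83, 0.105 and 0.179 CPM in control NK cells, from 1 to 19 counts. RMA intermediate NK cells had 23.7, 43.4 and 22.0 CPM and RMA late NK cells 27.4, 21.7 and 13.9 CPM, every library above control. The log2 fold changes were 4.59 (SE 1.34, adjusted p = 0.0756) and 4.09 (SE 1.32, adjusted p = 0.113), which missed the threshold. DESeq2 at its defaults called E2f8 in both (adjusted p = 0.00411 and 0.0109), and over the alternatives that leave out no single library the adjusted p ranged from 6.70e-06 to 0.118 and from 9.14e-05 to 0.175. In RMA-KR late NK cells E2f8 was at 18.7 and 32.2 CPM in 2 libraries and at 0.0964 CPM, 1 count, in replicate 3, whose E2f7 had 196 counts. There the log2 difference was 3.78 (SE 1.30, adjusted p = 0.206), and DESeq2 gave an adjusted p of 0.0346, within a range of 0.000488 to 0.346 over the alternatives. E2f8 shares 610 of its 5443 exon bases (11.2%) with Gm2788 on the opposite strand, and whether reads of these bases were left out or assigned by strand depends on the strand setting, which is not given. E2f7 (ENSMUSG00000020185, chr10:110745439-110787384), whose exons share 86 bases with the antisense gene 1700020G17Rik, stood at 2.96, 2.51, 0.316 and 1.43 CPM in control NK cells. It measured 7.50, 20.4 and 22.1 CPM in RMA intermediate, 9.46, 7.26 and 21.9 CPM in RMA late and 12.0, 11.1 and 18.9 CPM in RMA-KR late NK cells. All 9 of these libraries lay above control. The log2 fold changes were 3.21 (SE 1.33, adjusted p = 0.264), 2.84 (SE 1.32, adjusted p = 0.340) and 2.96 (SE 1.32, adjusted p = 0.332), none past the threshold. Over the alternatives that leave out no single library the adjusted p of E2f7 ranged from 0.00825 to 0.354, 0.0285 to 0.464 and 0.0237 to 0.442, and edgeR's newer method called it in all 3 groups.

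E2f4, E2f5 and E2f6, the repressors that act with pocket or Polycomb proteins, gave 0 calls by edgeR's main test and DESeq2 in any comparison with control, with 0 at an unadjusted p below 0.05. For E2f5 and E2f6 in RMA-KR intermediate NK cells DESeq2 gave no adjusted p. E2f4 (ENSMUSG00000014859, chr8:105297663-105305370) was the steadiest member, at 28.0 to 97.1 CPM over all 24 libraries. Its group means ran from 41.2 ± 12.5 CPM in RMA-KR late (n = 3) to 65.0 ± 19.8 CPM in RMA-KR intermediate NK cells (n = 5), around 55.5 ± 9.86 CPM in control (n = 4). The log2 fold change against control lay between −0.43 and 0.23 in all 6 groups. E2f5 (ENSMUSG00000027552, chr3:14578641-14606309), which shares 26 exon bases with 1810022K09Rik on the opposite strand, averaged 15.2 ± 5.08 CPM in control NK cells. Its log2 fold change was below 0 in all 6 groups, from −1.01 (SE 0.82, adjusted p = 0.652) in RMA late to −0.47 in RMA intermediate NK cells. RMA late NK cells had 9.20, 9.21 and 4.2 CPM of E2f5, all below the lowest control library at 10.6 CPM. E2f6 (ENSMUSG00000057469, chr12:16810963-16839742) varied widely, with 0 to 29.5 CPM over all libraries. In RMA intermediate NK cells it measured 13.8, 18.5 and 21.8 CPM against 2.77, 2.60, 4.11 and 7.86 CPM in control, its log2 difference being 2.05 (SE 1.41, adjusted p = 0.470), called with only these groups in the fit (adjusted p = 0.0205, within a range of 0.0205 to 0.472 over the alternatives). RMA-KR early NK cells had at most 1.38 CPM of E2f6, each library below control, at −2.55 (SE 1.56, adjusted p = 0.693). RMA-KR intermediate NK cells split along the same libraries as the NK marker sum: E2f6 was at 0 and 0.540 CPM in replicates 1 and 2 and at 20.1, 29.5 and 15.8 CPM in replicates 3, 4 and 5. The same split held for E2f1, for Tfdp1 (24.1 and 21.3 against 39.9, 53.7 and 32.9 CPM), for E2f4 (49.4 and 48.0 against 63.1, 97.1 and 67.5 CPM) and for E2f7 (0.0694 and 0 against 2.06, 5.00 and 4.12 CPM). These are 5 of 9 members, beside 21.2% of all tested genes higher in replicates 3, 4 and 5 and 12.8% lower, and a chance share of 1 in 10 for each direction. Replicates 3, 4 and 5 also had more genes with a count (24676, 26285 and 24621) than replicates 1 and 2 (16651 and 15922). Such numbers were not confined to this group, as control replicate 4 had 27820 and RMA late replicate 3 had 24234. Among control libraries replicate 4 was highest in E2f4 (67.8 CPM) and E2f6 (7.86 CPM), but not in E2f1, E2f7 or Tfdp1. The part of the RMA-KR intermediate split in the members' values was not tested.

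Tfdp1 (ENSMUSG00000038482, chr8:13338751-13378448), the DP partner, stood at 23.1, 21.1, 19.4 and 19.0 CPM in control NK cells. RMA intermediate NK cells had 47.0, 71.3 and 65.4 CPM and RMA late NK cells 50.4, 46.5 and 32.2 CPM, every library above control. Against control it differed by 1.57 on the log2 scale (SE 0.42, adjusted p = 0.0463) at the intermediate stage, where Tfdp1 rose, and 1.06 (SE 0.42, adjusted p = 0.231, called only with the compared groups alone in the fit, range 0.0320 to 0.485) at the late stage. The first of these calls was close to the threshold: it was lost without control replicate 1, 2, 3 or 4 (adjusted p = 0.109, 0.112, 0.130 and 0.139), without RMA intermediate replicate 1, 2 or 3 (adjusted p = 0.0622, 0.180 and 0.160) and with DESeq2's size factors (adjusted p = 0.050). It was also lost with the replicate number as a block (log2 fold change 1.63, adjusted p = 0.0756). Over the alternatives that leave out no single library the adjusted p ranged from 0.00199 to 0.0756. RMA-KR early NK cells had 14.7, 16.1 and 7.89 CPM, each below control, at −0.68 (SE 0.43, adjusted p = 0.713). RMA-KR late NK cells had 24.6, 67.2 and 21.6 CPM, so replicate 2 set the mean, at a log2 difference of 0.87 (SE 0.42, adjusted p = 0.347). Tfdp2, which encodes another DP protein, and the pocket protein genes Rb1, Rbl1 and Rbl2 were not called in any comparison with control by edgeR's main test, though its newer method called 1 of these 4 in RMA intermediate NK cells (background of the main test 1.65%). At an unadjusted p below 0.05 there was 1 of these 4 genes in each RMA comparison with control and 0 in each RMA-KR one, and DESeq2 at its defaults called 1 in RMA intermediate NK cells and 0 in the others. Rbl1, which encodes p107, had the largest positive value, 1.07 (SE 0.30, adjusted p = 0.0636) in RMA intermediate NK cells. Tfdp2 had the largest negative one, −1.32 (SE 0.45, adjusted p = 0.62) in RMA early NK cells. Rb1 lay between −0.45 and 0.63 and Rbl2 between −0.23 and 0.29 on the log2 scale against control in the 6 groups.

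Activators and repressors were then set side by side. In RMA intermediate NK cells the median log2 fold change was 2.72 over the 3 activators and 2.05 over the 5 repressors, against −0.29 over all tested genes. In RMA late NK cells the medians were 2.43 and 1.03, against −0.18. RMA-KR late NK cells had 1.88 and 0.88, against −0.18. The repressor median in each of these groups was the value of E2f6. With 1 library left out, that value ran from −0.045 to 1.54 in RMA late and from 0.62 to 1.33 in RMA-KR late NK cells. The repressor median mixes E2f4 and E2f5, which lay near or below control, with E2f7 and E2f8, whose values exceeded those of E2f2 in all 3 groups. Early values were 0.10 for activators and −0.28 for repressors in the RMA model and −0.40 and −0.37 in the RMA-KR model, beside −0.06 and 0.00 over all genes. RMA-KR intermediate NK cells had 0.75 and 0.32, beside 0.01. From early to late the medians were 2.56 and 0.45 in the RMA model and 2.28 and 2.71 in the RMA-KR model. The RMA medians were the values of E2f2 and E2f6, which ran from 2.07 to 3.07 and from −0.65 to 3.72 with 1 library left out. The RMA-KR medians were those of E2f3 (1.67 to 5.01) and E2f8 (1.88 to 3.89). The order of the classes differed between the models in these medians. Neither this difference nor its dependence on single libraries was tested.

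Summed per kilobase, the 3 activators stood at 5.94 ± 1.77 CPM per kb in control (n = 4), 43.8 ± 2.86 in RMA intermediate, 32.8 ± 8.37 in RMA late and 27.8 ± 8.30 in RMA-KR late NK cells (n = 3 each). E2f7 and E2f8 together stood at 2.65 ± 1.91, 31.1 ± 11.9, 23.3 ± 7.53 and 23.2 ± 1.96 CPM per kb in the same groups. E2f4, E2f5 and E2f6 together stood at 58.7 ± 8.01, 67.2 ± 14.7, 45.6 ± 15.2 and 44.0 ± 13.5 CPM per kb, overlapping between groups. The activators' share of the summed E2F level was thus 8.85% ± 2.59 in control NK cells, from 7.14% to 12.7% between libraries. It was 31.6% ± 6.72 in RMA intermediate, 32.1% ± 4.47 in RMA late and 29.2% ± 4.17 in RMA-KR late NK cells, where the lowest library had 24.4%. Early shares were 13.5% ± 11 in the RMA and 10.1% ± 5.68 in the RMA-KR model, and RMA-KR intermediate NK cells had 16.5% ± 6.06 (n = 5). Without division by length the shares were higher, at 17.6% ± 4.77 in control, 47.7% ± 6.10 in RMA intermediate, 49.4% ± 2.92 in RMA late and 46.3% ± 2.29 in RMA-KR late NK cells. No test was made of these sums.

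**Figure D3:**
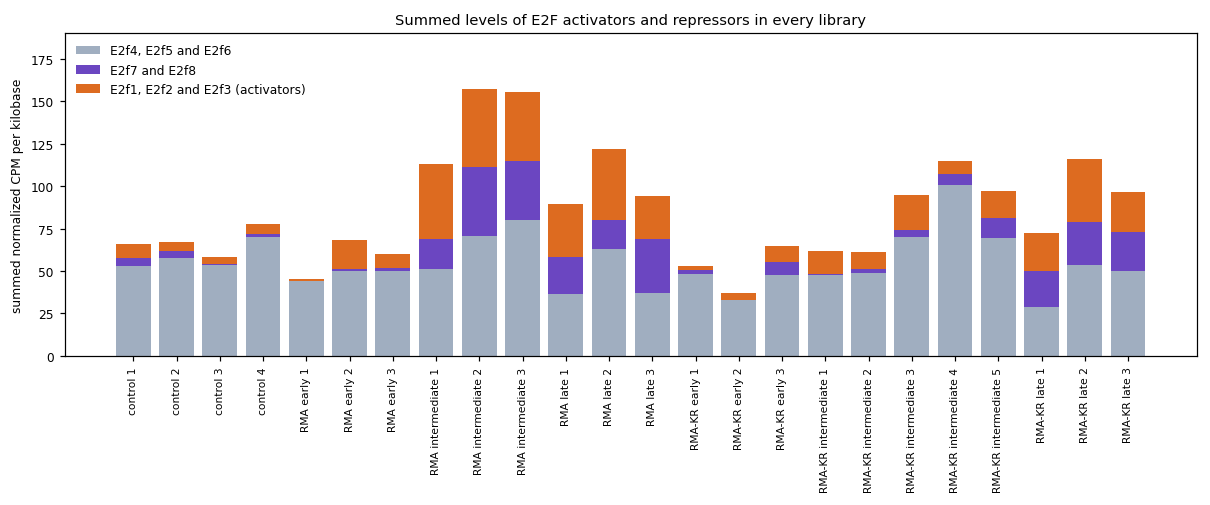
Summed level per kilobase of E2F classes in each of the 24 libraries (stacked bars from 0, CPM per kb): E2f4, E2f5 and E2f6 in grey, E2f7 and E2f8 in purple and the activators E2f1, E2f2 and E2f3 in orange. The orange part averages 5.94 CPM per kb in control and 43.8 CPM per kb in RMA intermediate NK cells. The height of the purple part depends on the 827 bases used as the length of E2f7.

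Genes that E2F proteins are known to control at the G1/S transition were examined next, as a list of 33 that were all tested. In RMA intermediate NK cells 20 of 33 rose and 0 fell, against 1.65% of all tested genes called, with 33 positive values and a median log2 fold change of 2.28. In RMA late NK cells 14 rose and 0 fell (background 1.79%, 33 positive, median 2.01). In RMA-KR late NK cells 7 rose and 0 fell (background 0.983%, 31 positive, median 1.27), and 21 were at an unadjusted p below 0.05. The RMA late count was 23 with edgeR's newer method, 22 with no filter and 22 with only the compared groups in the fit. The RMA-KR late count was 3 with the replicate block, 11 by DESeq2 with betaPrior=TRUE and 19 with no filter. The 5 with the smallest p in RMA late NK cells were Rrm2 at 3.65 (SE 0.53, adjusted p = 0.000442), Rrm1 at 2.01 (SE 0.33), Prim1 at 2.11 (SE 0.35), Mcm6 at 1.63 (SE 0.28) and Tyms at 2.92 (SE 0.53). Rrm1 and Rrm2 encode ribonucleotide reductase, Tyms makes thymidylate, Prim1 is DNA primase and Mcm6 a subunit of the replicative helicase. In RMA-KR late NK cells they were Rrm2 at 3.34 (SE 0.52, adjusted p = 0.00156), Rrm1 at 1.56 (SE 0.33), Mcm6 at 1.24 (SE 0.28), Ccna2 at 3.55 (SE 0.81) and Cdk1 at 3.39 (SE 0.81), the last 2 encoding cyclin A2 and its kinase. Rrm2 measured 23.4 ± 18.5 CPM in control (n = 4), 290 ± 109 in RMA late (n = 3) and 234 ± 95.4 CPM in RMA-KR late NK cells (n = 3). The counts of the late groups depended on single libraries, and the list's count in RMA intermediate NK cells was not repeated with libraries left out. The RMA late count was 7 without control replicate 2, 8 without control replicate 3, 7 without control replicate 4, 8 without RMA late replicate 1 and 6 without RMA late replicate 2. The RMA-KR late count was 4, 1, 2 and 1 without control replicate 1, 2, 3 and 4, and 2 and 1 without RMA-KR late replicate 1 and 2.

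**Figure D4:**
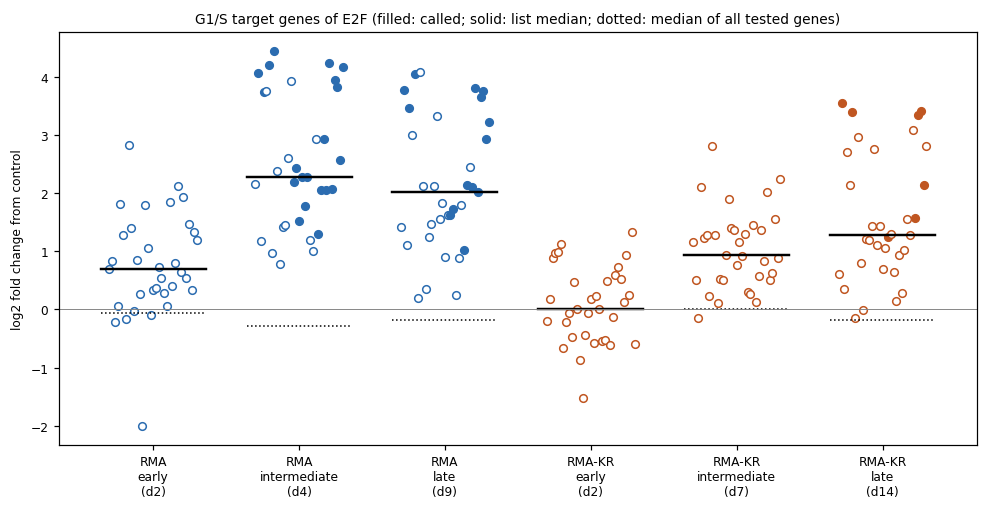
Log2 fold change against control (vertical axis, log2 scale) of the 33 G1/S target genes in the 6 tumor-bearing groups, filled where called, with a solid line at the list's median and a dotted line at the median of all tested genes. The list's median is 2.28 in RMA intermediate, 2.01 in RMA late and 1.27 in RMA-KR late NK cells.

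The same 33 genes gave 0 calls by edgeR and by DESeq2 in RMA early NK cells (background 0%), with 28 positive values, a median of 0.69 and 9 at an unadjusted p below 0.05, as were 1204 of all 17097 tested genes. RMA-KR early NK cells gave 0 calls by either tool (background 0.0819%), with 18 positive, a median of 0.01 and 4 at an unadjusted p below 0.05 (1490 of all). RMA-KR intermediate NK cells gave 0 calls by edgeR (background 0.0175%), 1 by DESeq2 at its defaults and 2 with betaPrior=TRUE, with 32 positive, a median of 0.94 and 14 at an unadjusted p below 0.05 (1011 of all). From early to late, 6 rose in the RMA model (background 2.01%), where DESeq2 called 9 at its defaults and 10 with betaPrior=TRUE, edgeR's newer method called 9, and edgeR with only these groups in the fit called 1 gene of all tested. For the same step in the RMA-KR model (background 0.322%) edgeR called 0, its newer method 6, DESeq2 7 and an unadjusted p below 0.05 was met by 19 (32 positive, median 1.18).

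Among 13 tested genes of 15 listed for G1 cyclins, their kinases and inhibitors, 3 rose in RMA intermediate NK cells (background 1.65%), 2 in RMA late (1.79%) and 2 in RMA-KR late NK cells (0.983%), and 0 fell in each. Ccne1, which encodes cyclin E1, rose in all 3, by 2.98 (SE 0.50), 2.69 (SE 0.50) and 2.22 (SE 0.49) on the log2 scale. Cdk2, its kinase, rose by 2.09 (SE 0.31) and 1.89 (SE 0.31) in RMA intermediate and RMA late NK cells. Cdk6 rose by 1.42 (SE 0.34) in RMA intermediate NK cells, and Cdkn2c, an inhibitor of CDK4 and CDK6, by 1.84 (SE 0.37) in RMA-KR late NK cells. List medians were 0.88, 0.79 and 0.54, against −0.29, −0.18 and −0.18 over all genes. The RMA intermediate count was 5 by DESeq2, at its defaults and with betaPrior=TRUE, and 4 by edgeR's newer method. The RMA late count was 4 without RMA late replicate 3 and 4 by DESeq2. The RMA-KR late count was 1 with the replicate block, with only the compared groups in the fit and without control replicate 1 or 2 or RMA-KR late replicate 3, and 0 without control replicate 3 or 4 or RMA-KR late replicate 1. Of 6 tested genes among 7 apoptosis targets of E2F1, 1 rose and 0 fell in each of the same 3 groups, against 1.65%, 1.79% and 0.983% of all tested genes called. The list's RMA-KR late count was 0 with the replicate block, with only the compared groups in the fit and without control replicate 2 or 4 or RMA-KR late replicate 1, and 2 with no filter and without RMA-KR late replicate 2. The list's medians were 0.26, −0.03 and 0.36.

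Partners of the repressors were also listed. Of 7 Polycomb genes of the E2F6 complex, Cbx3 rose by 1.48 (SE 0.40, adjusted p = 0.0466) in RMA late NK cells (1 of 7, background 1.79%), and the list's count was 0 with no filter, with the replicate block and without control replicate 1, 2 or 3 or RMA late replicate 1 or 2, with a list median of −0.45. In RMA intermediate NK cells edgeR called 0 of 7 (background 1.65%), DESeq2 1, and 1 was at an unadjusted p below 0.05 (2726 of all 17097 tested genes). In RMA-KR late NK cells edgeR called 0 of 7 (background 0.983%), DESeq2 1, and 3 were at an unadjusted p below 0.05 (2430 of all). The list of DREAM, through which E2F4 acts in resting cells, and of the MYB and FOXM1 complexes, which share its MuvB core in cycling cells, held 8 genes and gave 0 calls by edgeR in RMA intermediate, RMA late and RMA-KR late NK cells, against 1.65%, 1.79% and 0.983% of all tested genes. There DESeq2 at its defaults and edgeR's newer method each called 1 in every group. At an unadjusted p below 0.05 there were 2, 2 and 1 of the list, beside 2726, 2398 and 2430 of all 17097 tested genes. The list's medians were 0.37, 0.39 and 0.22. Only 1 of 4 germline genes repressed by E2F6 passed the filter, and it was called by neither tool in any comparison, with 0 at an unadjusted p below 0.05. Over the same comparisons edgeR called 0% to 2.01% of all 17097 tested genes, and 763 to 2936 were at an unadjusted p below 0.05.

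Summed T cell markers, which a T cell lymphoma such as RMA may share, stood at 384 ± 30.4 CPM in control (n = 4), 306 ± 23.8 in RMA intermediate, 522 ± 66.3 in RMA late and 447 ± 50.7 CPM in RMA-KR late NK cells (n = 3 each). Most of each sum was Trbc1, at 261 ± 25.6, 196 ± 13.4, 347 ± 24.2 and 308 ± 37.7 CPM in the same order. Macrophage markers stood at 13.7 ± 4.18 CPM in control, 18 ± 2.02 in RMA intermediate, 40.5 ± 9.16 in RMA late and 62.3 ± 23.1 CPM in RMA-KR late NK cells, and the part of these markers in the members' values was not tested. Cd68 alone averaged 11.1, 16.9, 33.6 and 57.9 CPM of the macrophage sums. B cell markers stood at 310 ± 71.7, 324 ± 14.1, 351 ± 28.5 and 492 ± 86.4 CPM in the same order. NK markers stood at 28657 ± 5065, 31392 ± 2385, 35526 ± 3054 and 28087 ± 3408 CPM. The filter left 8 of the 11 T cell, 3 of the 8 macrophage and all B cell and NK genes to be tested. Of them edgeR's main test called 0 in these 3 groups against control, beside 1.65%, 1.79% and 0.983% of all tested genes. At an unadjusted p below 0.05 there were 5, 4 and 3 NK, 1, 2 and 1 T cell, 1, 0 and 2 B cell and 0, 0 and 2 macrophage markers. The same was met by 2726, 2398 and 2430 of all 17097 tested genes. DESeq2 and edgeR's newer method each called 1 B cell and 1 macrophage marker in RMA-KR late NK cells and 0 in RMA intermediate and RMA late NK cells.

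Over the 24 libraries E2f2 correlated best, in log2 CPM, with E2f7 among members (Pearson r = 0.764), followed by E2f8 (0.747) and E2f3 (0.735), and its r with E2f4 was −0.0327. These values describe libraries that share groups. The 3 tested genes most alike to each member by the same measure were named for every member. For E2f2 they were Tk1 (r = 0.943), Top2a (0.922) and Ywhah (0.915). For E2f8 they were Mcm6 (0.865), Rfc2 (0.827) and Atp5a1 (0.827), and for E2f7 A430093F15Rik (0.835), Clspn (0.813) and Ccdc18 (0.812). For Tfdp1 they were Mcm5 (0.895), Psat1 (0.891) and Dut (0.883). For E2f1 they were Zfp324 (0.868), Coq3 (0.849) and Mrpl17 (0.847), and for E2f3 Cks1b (0.835), Rfc5 (0.832) and Ccne1 (0.825). For E2f4 they were Prrc2a (0.805), Pelp1 (0.785) and Fasn (0.768). For E2f5 they were Mtmr10 (0.889), Mios (0.887) and Zfp707 (0.885), and for E2f6 Cdca7 (0.858), Parvg (0.838) and Rbmxl1 (0.834).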

How the data were processed

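Polyadenylated RNA of sorted splenic NK cells was sequenced from a Lexogen mRNAseq kit V2. The authors trimmed reads with cutadapt 1.10, removed reads under 40 bp and ribosomal reads (Bowtie2 2.2.8), aligned to mm10 with STAR 2.5.3a and counted with HTSeq 0.6.1p1 in union mode on Ensembl 96, which leaves out reads that fall on overlapping genes. The strand setting of counting is not given in the sources used here. The values used are the deposited raw counts per gene, as the authors made them. The table has 112 columns, of which 48 normalized per-library columns and the authors' own fold changes and p-values were not used.

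In R 4.3.3, edgeR 4.0.16 scaled the counts by TMM, kept 17097 genes with filterByExpr and fitted 1 mean for each of 7 groups with the robust quasi-likelihood test (log2 CPM with a prior count of 2). P-values were adjusted by Benjamini-Hochberg over all tested genes, and a gene was called at an adjusted p below 0.05 and a fold change above 2. The SE is the log2 fold change divided by the square root of F. Levels are CPM scaled by TMM, divided by the authors' transcript length for comparisons between genes. Replicate libraries of a group correlated at r = 0.810 to 0.964 (31 pairs, log2 CPM) and differed beyond counting noise. Code was tested on simulated data. Alternatives were DESeq2's size factors, DESeq2 1.42.0 at its defaults and with betaPrior=TRUE as in the study, other filters, the replicate number as a block, fits on the compared groups alone, levels without length, each library left out, and edgeR's newer quasi-likelihood method, which was chosen after seeing the data. Named genes are all 9 members, the Tfdp2 and pocket protein genes, up to 5 called genes of each pathway list but the apoptosis targets in a late group, and the 3 genes most alike to each member. Cdk6, the cell markers named and the member pairs fall outside that rule and were chosen after their values were seen. Members and lists were chosen with earlier results of these data known. RefSeq promoters are of GRCm38.p6.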

Additional observations from a re-analysis of the deposited data

Results flagged for a closer look

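E2f1 in RMA-KR intermediate NK cells had 1 library far from the other 4: replicate 3 measured 37.9 CPM, against 7.91 to 12.5 CPM in the others, a gap of 0.712 of the group's whole range in log2 CPM. Of 18 groups of members checked in this way (4 or 5 libraries each) 1 met the limit, and chance gives about 1 in 20. The log2 fold change of E2f1 against control in this group was not called.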

How the results depend on the processing

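The alternatives tried, with edgeR's newer method among them, gave 778 values of single members on the same side of 0 and of the threshold, 49 newly called, 6 no longer called and 24 of the other sign. Of the counts of listed genes 158 were within 1.5 times, 28 moved further, 19 went from 0 to a call and 8 to 0. Of the counts over all genes 38 were within 1.5 times, 48 moved further, 15 left 0 and 3 went to 0. Beside each alternative's count stands the reported one after 'against', and the cause was not tested. The planned legacy=TRUE setting of edgeR is its default here and gave identical values, which these numbers leave out. Activator shares on the CPM scale without length were 17.6% in control, 23.5% in RMA early, 47.7% in RMA intermediate, 49.4% in RMA late, 20.1% in RMA-KR early, 29.2% in RMA-KR intermediate and 46.3% in RMA-KR late NK cells. Depth limits members near 3 counts, 0.584 CPM in the smallest library.

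With DESeq2's size factors in place of TMM, the number of family members called was 1 (E2f2) against 2 for RMA intermediate against control. DESeq2's size factors gave, over all tested genes, 7 against 14 for RMA-KR early against control. DESeq2's size factors turned the sign of uncalled log2 fold changes to 0.0096 for E2f2 in RMA-KR early against control and 0.040 for E2f5 in RMA early against RMA-KR early.

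With DESeq2 at its default settings, the number of family members called was 2 (E2f2 and E2f8) against 1 for RMA late against control, 2 (E2f2 and E2f8) against 1 for RMA-KR late against control, 4 (E2f2, E2f3, E2f7 and E2f8) against 1 for RMA late against RMA early, 2 (E2f2 and Tfdp1) against 0 for RMA-KR late against RMA-KR early and 1 (E2f2) against 0 for RMA-KR late against RMA-KR intermediate. DESeq2's defaults called 1 against 0 of the DREAM, MuvB and MYB-FOXM1 complexes and 4 against 2 of the G1 cyclins and CDKs for RMA late against control, and 1 against 0 of the DREAM, MuvB and MYB-FOXM1 complexes and 1 against 0 of the E2f6 Polycomb complex for RMA-KR late against control. DESeq2's defaults gave, over all tested genes, 68 against 0 for RMA early against control, 624 against 282 for RMA intermediate against control, 602 against 306 for RMA late against control, 150 against 14 for RMA-KR early against control, 24 against 3 for RMA-KR intermediate against control, 463 against 168 for RMA-KR late against control, 919 against 344 for RMA late against RMA early, 454 against 55 for RMA-KR late against RMA-KR early, 35 against 0 for RMA late against RMA intermediate, 262 against 51 for RMA-KR late against RMA-KR intermediate, 297 against 52 for RMA early against RMA-KR early, 47 against 0 for RMA late against RMA-KR late and 149 against 0 for the difference between the models. DESeq2's defaults turned the sign of uncalled log2 fold changes to 0.0082 for E2f2 in RMA-KR early against control and 0.040 for E2f5 in RMA early against RMA-KR early. In RMA intermediate against control it called 3 members (E2f2, E2f8 and Tfdp1) against 2.

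With DESeq2 and betaPrior=TRUE, the number of family members called was 4 (E2f1, E2f2, E2f8 and Tfdp1) against 2 for RMA intermediate against control, 2 (E2f2 and E2f8) against 1 for RMA late against control, 2 (E2f2 and E2f3) against 1 for RMA late against RMA early, 2 (E2f2 and Tfdp1) against 0 for RMA-KR late against RMA-KR early and 1 (E2f2) against 0 for RMA-KR late against RMA-KR intermediate. DESeq2 with this prior called 1 against 0 of the DREAM, MuvB and MYB-FOXM1 complexes and 4 against 2 of the G1 cyclins and CDKs for RMA late against control, and 11 against 7 of the G1/S targets and 1 against 0 of the E2f6 Polycomb complex for RMA-KR late against control. DESeq2 with this prior gave, over all tested genes, 19 against 0 for RMA early against control, 450 against 282 for RMA intermediate against control, 472 against 306 for RMA late against control, 91 against 14 for RMA-KR early against control, 15 against 3 for RMA-KR intermediate against control, 321 against 168 for RMA-KR late against control, 629 against 344 for RMA late against RMA early, 274 against 55 for RMA-KR late against RMA-KR early, 152 against 51 for RMA-KR late against RMA-KR intermediate, 181 against 52 for RMA early against RMA-KR early, 10 against 0 for RMA late against RMA-KR late and 59 against 0 for the difference between the models. DESeq2 with this prior turned the sign of uncalled log2 fold changes to 0.031 for E2f1 in RMA-KR early against control, 0.081 for E2f2 in RMA-KR early against control and 0.022 for E2f5 in RMA early against RMA-KR early.

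With edgeR's newer quasi-likelihood method (legacy=FALSE), an alternative chosen after seeing the data, the number of family members called was 6 (E2f1, E2f2, E2f3, E2f7, E2f8 and Tfdp1) against 2 for RMA intermediate against control, 4 (E2f2, E2f3, E2f7 and E2f8) against 1 for RMA late against control, 3 (E2f2, E2f7 and E2f8) against 1 for RMA-KR late against control, 4 (E2f2, E2f3, E2f7 and E2f8) against 1 for RMA late against RMA early, 2 (E2f2 and E2f7) against 0 for RMA-KR late against RMA-KR early and 2 (E2f2 and E2f7) against 0 for RMA-KR late against RMA-KR intermediate. The newer method called 1 against 0 of the DREAM, MuvB and MYB-FOXM1 complexes and 23 against 14 of the G1/S targets for RMA late against control, and 1 against 0 of the DREAM, MuvB and MYB-FOXM1 complexes for RMA-KR late against control. The newer method gave, over all tested genes, 447 against 282 for RMA intermediate against control, 480 against 306 for RMA late against control, 311 against 168 for RMA-KR late against control, 664 against 344 for RMA late against RMA early, 321 against 55 for RMA-KR late against RMA-KR early, 183 against 51 for RMA-KR late against RMA-KR intermediate, 4 against 0 for RMA late against RMA-KR late and 7 against 0 for the difference between the models. The newer method turned the sign of uncalled log2 fold changes to 0.11 for E2f2 in RMA-KR early against control, 0.039 for E2f3 in RMA late against RMA intermediate and 0.021 for E2f5 in the difference between the models.

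With no filter on low counts, the number of family members called was 4 (E2f1, E2f2, E2f8 and Tfdp1) against 2 for RMA intermediate against control, 2 (E2f2 and E2f8) against 1 for RMA late against control, 2 (E2f2 and E2f8) against 1 for RMA-KR late against control, 4 (E2f2, E2f3, E2f7 and E2f8) against 1 for RMA late against RMA early, 1 (E2f2) against 0 for RMA-KR late against RMA-KR early and 1 (E2f2) against 0 for RMA-KR late against RMA-KR intermediate. The unfiltered fit called 1 against 0 of the DREAM, MuvB and MYB-FOXM1 complexes, 22 against 14 of the G1/S targets and 0 against 1 of the E2f6 Polycomb complex for RMA late against control, and 1 against 0 of the DREAM, MuvB and MYB-FOXM1 complexes, 19 against 7 of the G1/S targets and 2 against 1 of the E2F1 apoptosis targets for RMA-KR late against control. The unfiltered fit gave, over all tested genes, 88 against 0 for RMA early against control, 477 against 282 for RMA intermediate against control, 472 against 306 for RMA late against control, 110 against 14 for RMA-KR early against control, 56 against 3 for RMA-KR intermediate against control, 394 against 168 for RMA-KR late against control, 526 against 344 for RMA late against RMA early, 337 against 55 for RMA-KR late against RMA-KR early, 10 against 0 for RMA late against RMA intermediate, 263 against 51 for RMA-KR late against RMA-KR intermediate, 188 against 52 for RMA early against RMA-KR early, 28 against 0 for RMA late against RMA-KR late and 115 against 0 for the difference between the models. The unfiltered fit turned the sign of uncalled log2 fold changes to 0.0089 for E2f2 in RMA-KR early against control, 0.0054 for E2f1 in RMA late against RMA early and 0.0045 for E2f4 in the difference between the models.

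With at least 10 counts required in every library, where 3 members (E2f2, E2f4 and Tfdp1) were tested, the number of family members called was 1 (E2f2) against 0 for RMA-KR late against RMA-KR early. The stricter filter gave, over all tested genes, 557 against 344 for RMA late against RMA early, 124 against 55 for RMA-KR late against RMA-KR early, 79 against 52 for RMA early against RMA-KR early and 5 against 0 for the difference between the models.

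With the replicate number as a replicate block, the number of family members called was 0 against 2 for RMA intermediate against control, 0 against 1 for RMA late against control and 0 against 1 for RMA-KR late against control. The block called 0 against 1 of the E2f6 Polycomb complex for RMA late against control, and 1 against 2 of the G1 cyclins and CDKs, 3 against 7 of the G1/S targets and 0 against 1 of the E2F1 apoptosis targets for RMA-KR late against control. The block gave, over all tested genes, 0 against 14 for RMA-KR early against control, 1 against 3 for RMA-KR intermediate against control, 100 against 168 for RMA-KR late against control, 35 against 55 for RMA-KR late against RMA-KR early, 16 against 51 for RMA-KR late against RMA-KR intermediate, 17 against 52 for RMA early against RMA-KR early and 2 against 0 for the difference between the models. The block turned the sign of uncalled log2 fold changes to −0.14 for E2f2 in RMA early against control, −0.96 for E2f7 in RMA-KR early against control, −1.78 for E2f7 in RMA-KR intermediate against control, 0.21 for E2f1 in RMA late against RMA early, 0.020 for E2f5 in RMA late against RMA early, 0.25 for E2f6 in RMA-KR late against RMA-KR intermediate, −0.15 for E2f1 in RMA late against RMA-KR late, 0.080 for E2f5 in RMA late against RMA-KR late, 0.018 for E2f4 in the difference between the models and 0.15 for E2f5 in the difference between the models. The lost calls kept log2 fold changes of 2.54, 2.46 and 2.27 for E2f2 in RMA intermediate, RMA late and RMA-KR late and 1.63 for Tfdp1 in RMA intermediate against control. Deviations of libraries with the same replicate number correlated at r = −0.118 to 0.202 (64 pairs, median −0.00711) and with different numbers at −0.229 to 0.181 (181 pairs, median 0.0028), so the numbers do not pair the samples.

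With only the libraries of the groups compared, the number of family members called was 6 (E2f1, E2f2, E2f6, E2f7, E2f8 and Tfdp1) against 2 for RMA intermediate against control, 4 (E2f2, E2f7, E2f8 and Tfdp1) against 1 for RMA late against control and 0 against 1 for RMA late against RMA early. The fit on the compared groups called 1 against 0 of the DREAM, MuvB and MYB-FOXM1 complexes and 22 against 14 of the G1/S targets for RMA late against control, and 1 against 2 of the G1 cyclins and CDKs and 0 against 1 of the E2F1 apoptosis targets for RMA-KR late against control. The fit on the compared groups gave, over all tested genes, 762 against 282 for RMA intermediate against control, 573 against 306 for RMA late against control, 7 against 14 for RMA-KR early against control, 0 against 3 for RMA-KR intermediate against control, 1 against 344 for RMA late against RMA early, 2 against 55 for RMA-KR late against RMA-KR early, 19 against 51 for RMA-KR late against RMA-KR intermediate and 0 against 52 for RMA early against RMA-KR early. The fit on the compared groups turned the sign of uncalled log2 fold changes to 0.017 for E2f5 in RMA early against RMA-KR early.

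Each library of the groups compared was also left out in turn. For RMA intermediate against control the count called was 1 of the E2F family genes (all libraries: 2). For RMA late against control the count called was 0 to 1 of the E2F family genes (all libraries: 1), 2 to 4 of the G1 cyclins, CDKs and CDK inhibitors (all libraries: 2), 6 to 20 of the E2F target genes of the G1/S transition (all libraries: 14) and 0 to 1 of the E2f6 Polycomb complex genes (all libraries: 1). For RMA-KR late against control the count called was 0 to 1 of the E2F family genes (all libraries: 1), 0 to 2 of the G1 cyclins, CDKs and CDK inhibitors (all libraries: 2), 1 to 8 of the E2F target genes of the G1/S transition (all libraries: 7) and 0 to 2 of the E2F1 apoptosis target genes (all libraries: 1). For RMA late against RMA early the count called was 0 to 1 of the E2F family genes (all libraries: 1). Over all tested genes the count ran from 0 to 86 for RMA early against control (all libraries: 0), 166 to 226 for RMA intermediate against control (all libraries: 282), 127 to 457 for RMA late against control (all libraries: 306), 0 to 11 for RMA-KR early against control (all libraries: 14), 0 to 4 for RMA-KR intermediate against control (all libraries: 3), 71 to 152 for RMA-KR late against control (all libraries: 168), 81 to 568 for RMA late against RMA early (all libraries: 344), 13 to 51 for RMA-KR late against RMA-KR early (all libraries: 55), 19 to 66 for RMA-KR late against RMA-KR intermediate (all libraries: 51), 8 to 192 for RMA early against RMA-KR early (all libraries: 52), 0 to 2 for RMA late against RMA-KR late (all libraries: 0) and 0 to 57 for the difference between the models (all libraries: 0).

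Fold changes of uncalled members whose sign turned when 1 library was left out had wide ranges on the log2 scale. For RMA early against control they were −0.40 to 0.62 for E2f2, −2.68 to 1.18 for E2f6 and −0.57 to 0.19 for Tfdp1. For RMA late against control they were −0.045 to 1.54 for E2f6. For RMA-KR early against control they were −5.19 to 0.092 for E2f1, −0.69 to 0.38 for E2f2, −3.10 to 0.20 for E2f3, −3.62 to 0.68 for E2f7 and −0.10 to 1.89 for E2f8. For RMA-KR intermediate against control they were −0.21 to 0.66 for E2f7. For RMA late against RMA early they were −0.59 to 1.49 for E2f1, −0.34 to 0.14 for E2f4, −0.94 to 0.41 for E2f5 and −0.65 to 3.72 for E2f6. For RMA-KR late against RMA-KR early they were −0.25 to 0.15 for E2f4 and −0.80 to 0.43 for E2f5. For RMA late against RMA intermediate they were −0.28 to 0.12 for E2f2 and −0.26 to 0.36 for E2f3. For RMA-KR late against RMA-KR intermediate they were −0.75 to 0.12 for E2f5 and −0.54 to 0.47 for Tfdp1. For RMA early against RMA-KR early they were −0.41 to 0.82 for E2f2, −1.44 to 1.90 for E2f3, −0.024 to 0.21 for E2f4, −0.74 to 0.62 for E2f5, −0.16 to 3.96 for E2f6, −2.22 to 2.08 for E2f7 and −1.11 to 0.62 for E2f8. For RMA late against RMA-KR late they were −0.25 to 1.47 for E2f1, −0.027 to 0.40 for E2f2, −0.20 to 0.29 for E2f4, −0.40 to 0.47 for E2f5, −0.97 to 0.62 for E2f6, −0.74 to 0.15 for E2f7, −0.29 to 1.16 for E2f8 and −0.11 to 0.90 for Tfdp1. For the difference between the models they were −0.64 to 0.61 for E2f2, −1.34 to 2.00 for E2f3, −0.32 to 0.20 for E2f4, −0.78 to 0.58 for E2f5, −4.11 to 0.32 for E2f6, −2.21 to 2.09 for E2f7, −0.30 to 1.71 for E2f8 and −0.69 to 0.36 for Tfdp1.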
